A study of Homo sapiens with 6 samples.

Results

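Genes of cytokines, chemokines, their receptors and NF-kB signaling, 44 in all, were followed in MDA-MB-231 cells, a triple-negative breast cancer line of mesenchymal character. The members were 14 interleukins and other cytokines, 12 chemokines, 12 NF-kB subunits, inhibitors and responsive genes, and 6 cytokine receptors. A probe was taken as a member's when the RefSeq transcript it was designed against belongs to that gene. This held for 43 of the 44 members, with 55 of the 50599 probes on the array, and for CX3CL1 no probe was matched. The test took in each probe whose signal was well above background on 2 of 2 arrays in 1 or more groups. By this measure 29 members, with 33 probes, were among the 11974 genes and 18464 probes tested.

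The cells were transfected with a precursor of hsa-miR-205-5p, with a precursor of hsa-miR-214-3p or with a scrambled precursor, the negative control. Every precursor was given at 30 nM by reverse transfection, and the series' design text places the measurement 72 h after transfection. Each of the 3 groups had 2 arrays, and no array of untransfected cells was analysed here. The labels do not say whether both arrays of a group came from separate transfections, so the p-values measure only the spread between these arrays, which may be technical. A transfected precursor is processed to its mature miRNA from outside the cell's own genes, and these arrays do not give the level the miRNAs reached.

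NF-kB is a family of dimeric transcription factors that inhibitor proteins of the IkB family hold in the cytoplasm. Signals from interleukin-1, Toll-like and tumor necrosis factor receptors lead to the loss of these inhibitors, and the freed dimers switch on chemokines, cytokines, adhesion molecules and the inhibitors' own genes. A second, slower branch works through RELB and NFKB2. In MDA-MB-231 cells NF-kB is known to be active without added stimulus, and breast cancer cells use secreted cytokines such as interleukin-6 and interleukin-11 to act on themselves and on bone, vessel and immune cells.

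The mature sequences of both miRNAs, from RefSeq on GRCh38.p14, are given 5′ to 3′ because they are what distinguishes the groups. Capitals mark the seed, bases 2 to 8, with which a miRNA pairs with its targets.
hsa-miR-205-5p: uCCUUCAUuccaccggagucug
hsa-miR-214-3p: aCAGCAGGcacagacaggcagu
Their genes lie at chr1:209432166-209432187 on the plus strand and chr1:172138816-172138837 on the minus strand. The seeds differ, so the members were compared between both precursors as well as with the control.

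All values below are normalized log2 signals of 1 probe, that is log2 of the processed signal minus the 75th percentile of the same array, so that 0 stands for that percentile and 1 unit for a 2-fold step. Levels of different probes are not comparable with each other. On the 6 arrays, 35.4% to 42.2% of spots were well above background. The scrambled control arrays lay further apart than those of the precursors: over the tested members the median absolute difference between both arrays of a group was 0.31 in the control, 0.14 with hsa-miR-205-5p and 0.04 with hsa-miR-214-3p. Over all genes tested, control array 2 was closer to hsa-miR-214-3p array 1 (root mean square difference 0.576) than to control array 1 (0.609). Of the mesenchymal marker genes of the line, 7 of 8 were well above background on all arrays, SPARC being the exception. Of 8 luminal markers, ESR1, PGR, FOXA1 and ESRP1 were above background on none. Of 7 blood and immune cell markers, CD3E, ITGAM and SPI1 were above background on none, PTPRC on 2 of the 6 arrays, and CD14, CD68 and CSF1R on all.

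With hsa-miR-205-5p, 8 of the 29 tested members (27.6%) were higher than in the scrambled control and none was lower. Over all genes tested, 4.78% were called higher and 7.98% lower, a call being an adjusted p under 0.05 by limma together with at least a 2-fold difference. The 8 were the cytokines IL23A, IL24 and IL11, the chemokine CXCL1, the NF-kB genes RELB and ICAM1, and the receptors IL1RAP and IL7R. Of the other 21, log2 fold changes ran from -0.75 to 1.03, and at an unadjusted p with the same fold limit 9 members were higher and 0 lower by limma, against 7 and 0 by the methods' t-test. The median log2 fold change of the tested members was 0.45, beside 0.08 over all genes, and the 15 members without a tested probe do not enter it. In RNA from a whole culture, a change in the number of cells that express a gene and in the RNA per cell cannot be told apart.

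With hsa-miR-214-3p, 2 of the 29 members were higher than in the control, IL1RAP and IL7R, and 2 were lower, IL24 and IRAK2. This is 6.90% each way, beside 1.09% higher and 2.03% lower over all genes. IRAK2 met the 2-fold limit only by its fitted value, as its probe was below the background limit with this precursor, and among probes well above background on all 6 arrays 1 member was lower, IL24. The median log2 fold change was -0.01 for the members and -0.01 for all genes. This comparison and the one of hsa-miR-205-5p share both control arrays.

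Set directly against each other, 9 members were higher with hsa-miR-205-5p than with hsa-miR-214-3p and 1, IL18, was lower. The shares are 31.0% and 3.45% of the 29, beside 9.18% higher and 11.3% lower over all genes, with medians of 0.42 and 0.12. IL23A, IL24, IL11, CXCL1, RELB and ICAM1 were among the 9, together with CXCL2, NFKBIE and, again by its fitted value, IRAK2, so that 8 were higher among probes well above background on all 6 arrays. In all, 12 members were called in at least 1 comparison and 17 in none.

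**Figure D1:**
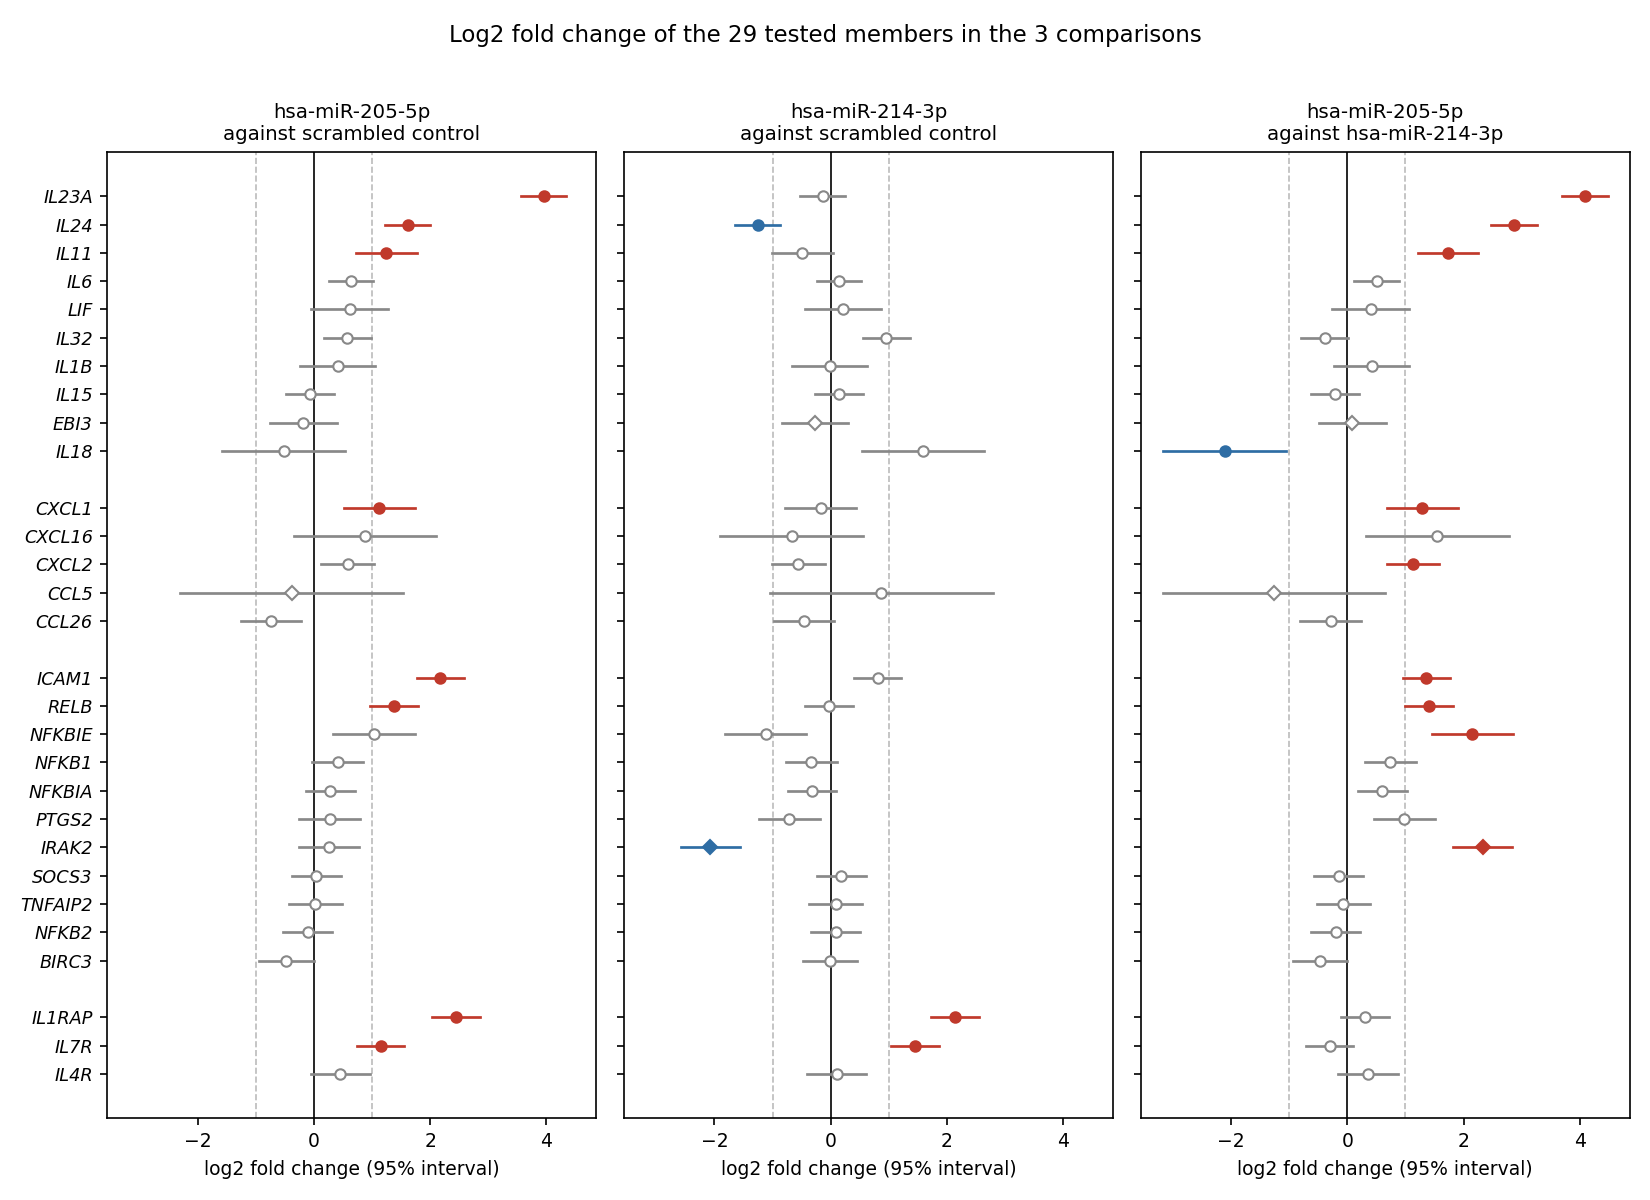
Log2 fold change of each of the 29 tested members (x axis) with its 95% interval, from the limma fit, in the 3 comparisons, grouped from top to bottom as cytokines, chemokines, NF-kB genes and receptors. Filled red marks are members called higher, filled blue ones called lower, open grey ones not called, and diamonds members not well above background in 1 of the groups compared; dashed lines mark 2-fold, and IL23A stands furthest right at 3.95 and 4.09 in the comparisons of hsa-miR-205-5p.

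Among the cytokines, IL23A stood apart from the rest. IL23A encodes p19, the subunit that joins IL12B (p40) to form interleukin-23, a cytokine that sustains T helper 17 cells. Its values were 5.38 and 5.37 with hsa-miR-205-5p, 1.25 and 1.32 with hsa-miR-214-3p, and 1.50 and 1.34 in the scrambled control. Both hsa-miR-205-5p arrays lay far above the other 4, which lay close together. The log2 fold change against the control was 3.95 ± 0.16 (SE), or 15.5-fold with a 95% interval of 11.8 to 20.2 (adjusted p = 0.00799). Against hsa-miR-214-3p it was 4.09 ± 0.16, or 17.0-fold (adjusted p = 0.00383). Between hsa-miR-214-3p and the control the log2 fold change was -0.14, with a 95% interval of -0.53 to 0.25 (adjusted p = 0.639).

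The subunit that IL23A needs was not seen. The probes of IL12B, of IL12A, the subunit of interleukin-12, and of the receptor chain IL12RB1 were well above background on 0 of the 6 arrays. EBI3, the partner subunit in interleukin-27 and interleukin-35, was near background, between -1.99 and -1.40 on the 6 arrays, and differed by -0.18 between hsa-miR-205-5p and the control (adjusted p = 0.589).

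IL24 moved in opposite directions with both precursors. It belongs to the interleukin-10 family and is known for its effects on the growth of tumor cells. The values were 3.15 and 3.13 with hsa-miR-205-5p, 0.30 and 0.24 with hsa-miR-214-3p, and 1.44 and 1.61 in the control. The groups did not overlap, and the control lay between the precursors. IL24 was 3.06-fold higher than the control with hsa-miR-205-5p (log2 fold change 1.61 ± 0.16, adjusted p = 0.00800) and 2.39-fold lower with hsa-miR-214-3p (-1.25 ± 0.16, adjusted p = 0.0335). Between the precursors it differed 7.29-fold (2.87 ± 0.16, adjusted p = 0.00383). A second IL24 probe was well above background on 2 arrays, neither of them with hsa-miR-205-5p, and was not tested.

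IL11, a cytokine of the interleukin-6 family known for its part in bone metastasis, had values of 4.04 and 3.73 with hsa-miR-205-5p, 2.23 and 2.07 with hsa-miR-214-3p, and 2.81 and 2.47 in the control. The hsa-miR-205-5p arrays were the highest and the hsa-miR-214-3p arrays the lowest, without overlap. It rose 2.37-fold with hsa-miR-205-5p (log2 fold change 1.24 ± 0.21, adjusted p = 0.0183), while the value for hsa-miR-214-3p against the control was -0.49 (adjusted p = 0.244). The direct difference was 3.33-fold (1.73 ± 0.21, adjusted p = 0.00558).

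IL18, an interleukin-1 family cytokine made as an inactive precursor, was the only member lower with hsa-miR-205-5p than with hsa-miR-214-3p. Its values were 1.44 and 1.17 with hsa-miR-205-5p, 3.41 and 3.43 with hsa-miR-214-3p, and 1.19 and 2.47 in the control. The control arrays differed by more than 1 unit from each other, array 1 lying among the hsa-miR-205-5p arrays. The direct difference was 4.32-fold (log2 fold change -2.11 ± 0.42, adjusted p = 0.0186), and neither precursor's comparison with the control passed the test (-0.53, adjusted p = 0.401, and 1.59, adjusted p = 0.111).

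The remaining tested cytokines were not called. IL6, the founding member of its family, had values of 4.42 and 4.47 with hsa-miR-205-5p, 3.92 and 3.96 with hsa-miR-214-3p, and 3.73 and 3.87 in the control. Its difference of 0.64 between hsa-miR-205-5p and the control passed the p-value (adjusted p = 0.0413) but was under 2-fold. IL32, a cytokine induced by interleukin-18 and tumor necrosis factor, reached a log2 fold change of 0.96 for hsa-miR-214-3p against the control (adjusted p = 0.0497), also under 2-fold. Its dimmer probe passed both limits there, at 1.06 (adjusted p = 0.0444 by limma), so that its call depends on the probe. LIF, a leukemia inhibitory factor acting through the shared receptor IL6ST, IL1B and IL15 had log2 fold changes between -0.06 and 0.61 with hsa-miR-205-5p and between -0.01 and 0.21 with hsa-miR-214-3p, with adjusted p-values of 0.157 to 0.983. Without IL23A, the median of the 9 other tested cytokines was 0.57 with hsa-miR-205-5p and 0.14 with hsa-miR-214-3p.

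**Figure D2:**
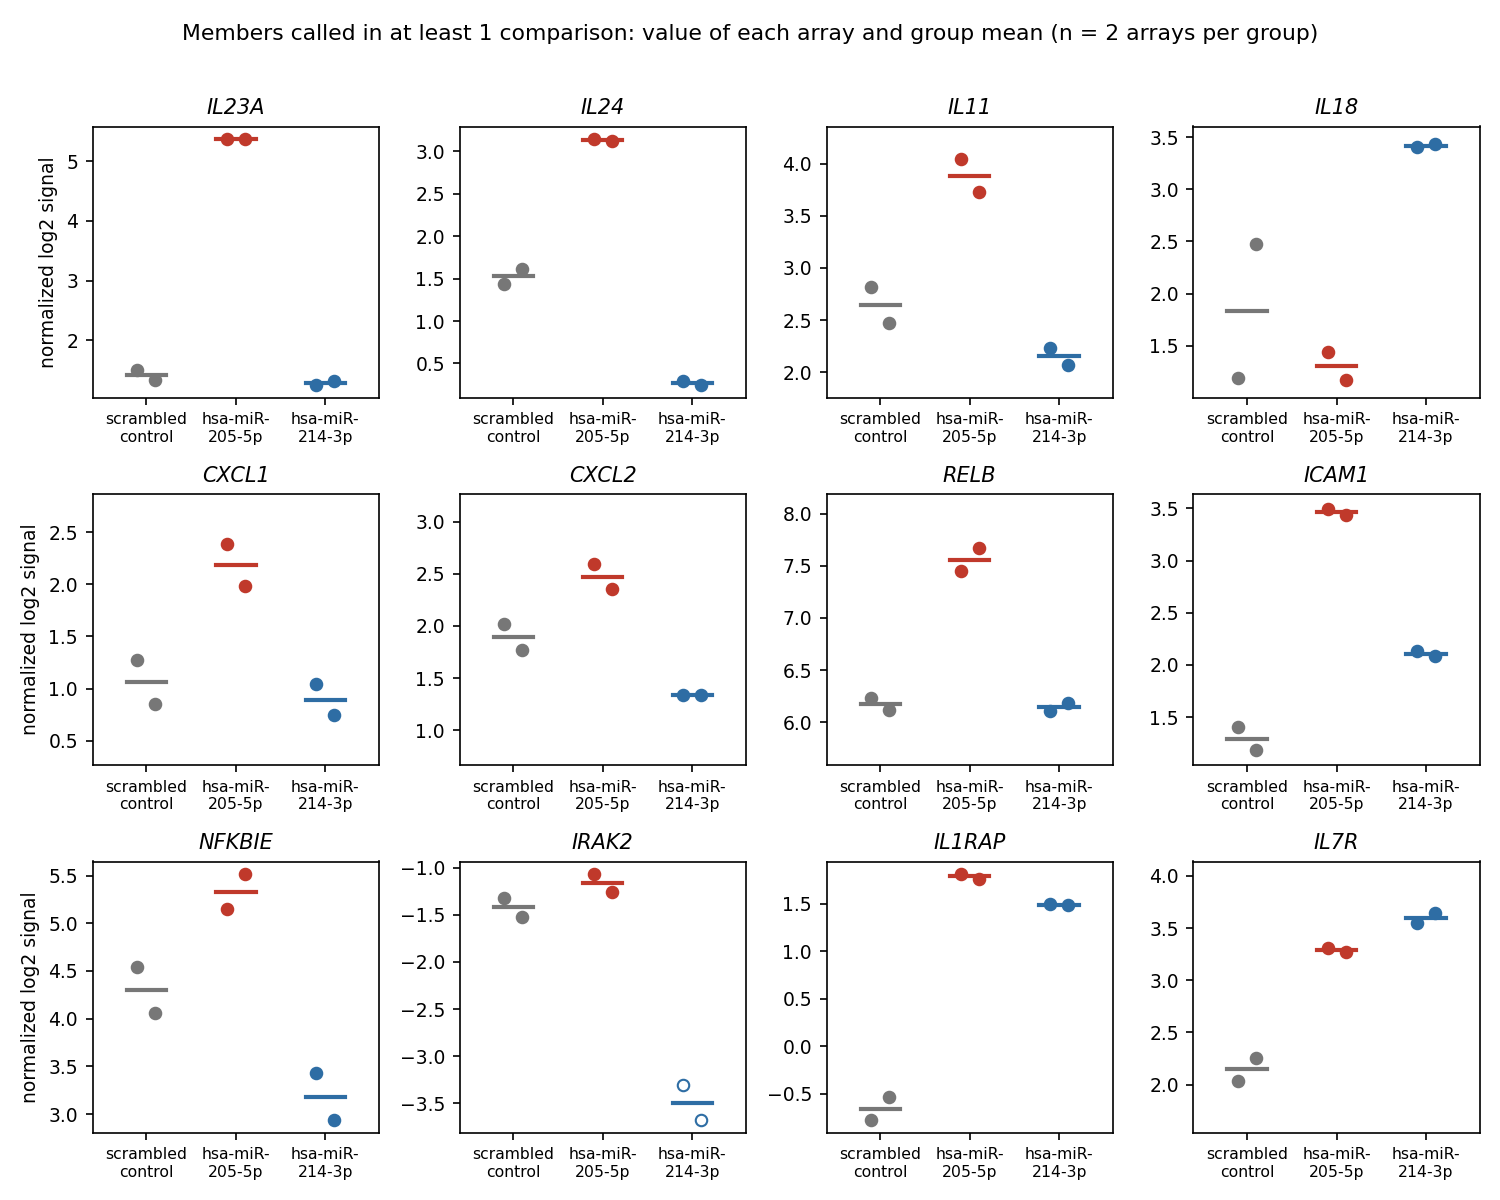
Normalized log2 signal (y axis, a separate scale in each panel) of the 12 members called in at least 1 comparison, with 1 point per array, 2 arrays per group and a line at the group mean; open points are not well above background. IL23A lies near 5.37 with hsa-miR-205-5p and between 1.25 and 1.50 on the other 4 arrays, IL24 lies on opposite sides of the control, and IL1RAP and IL7R are above the control with both precursors.

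Among the 5 tested chemokines, CXCL1 and CXCL2, both ligands of the neutrophil receptor CXCR2, were called in at least 1 comparison. On the brighter of its 2 probes CXCL1 had values of 2.38 and 1.98 with hsa-miR-205-5p, 1.04 and 0.75 with hsa-miR-214-3p, and 1.27 and 0.85 in the control. The hsa-miR-205-5p arrays were above the other 4, which overlapped. It was 2.17-fold higher than the control (log2 fold change 1.12 ± 0.24, adjusted p = 0.0338) and 2.44-fold higher than with hsa-miR-214-3p (1.29 ± 0.24, adjusted p = 0.0161).

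CXCL2 had values of 2.59 and 2.35 with hsa-miR-205-5p, 1.34 and 1.34 with hsa-miR-214-3p, and 2.02 and 1.77 in the control on its brighter probe. The 3 groups did not overlap, with the control in the middle. The direct difference was 2.20-fold (log2 fold change 1.13 ± 0.18, adjusted p = 0.0105), and the difference from the control was 0.58 with hsa-miR-205-5p (adjusted p = 0.0795) and -0.56 for hsa-miR-214-3p (adjusted p = 0.157).

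The second probes of these chemokines gave other calls. On its dimmer probe CXCL1 was higher with hsa-miR-205-5p than in the control (log2 fold change 1.23, adjusted p = 0.0158), but the direct difference was 0.54 and not called (adjusted p = 0.0846). For CXCL2 the dimmer probe showed 0.11 between the precursors, not called, where the brighter one showed 1.13. CXCL1, CXCL2 and CXCL3 are near-identical neighbors, and whether a probe also binds transcripts of the others was not tested.

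**Figure D3:**
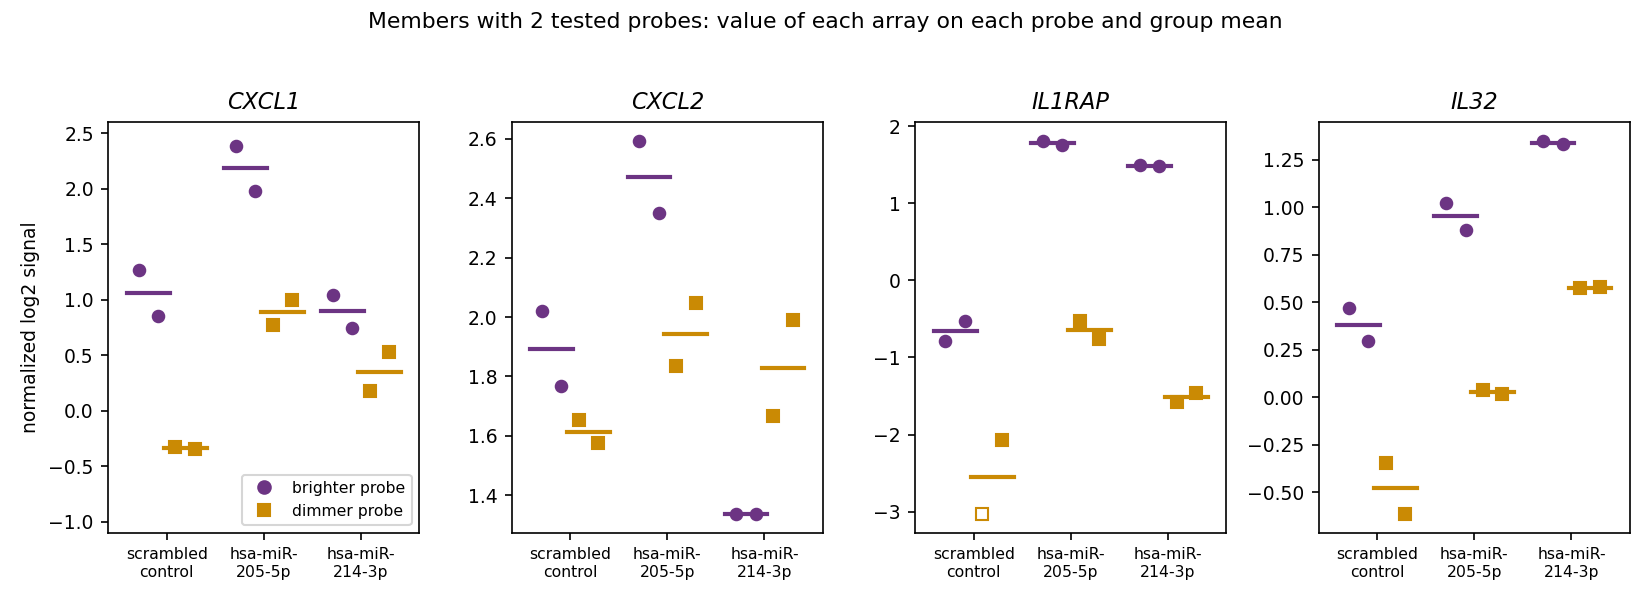
Normalized log2 signal (y axis) of the 4 members with 2 tested probes, in the 3 groups, with 1 point per array and a line at the group mean for each probe; the open point is not well above background, and levels of both probes are not comparable. For CXCL2 the brighter probe separates the precursors by 1.13 and the dimmer one by 0.11, while both probes of IL1RAP are above the control with both precursors.

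The other 3 tested chemokines passed in no comparison. CCL26, or eotaxin-3, had the lowest member value with hsa-miR-205-5p, -0.75 (adjusted p = 0.0597). CXCL16, the ligand of CXCR6, differed from the control by 0.88 on the log2 scale with hsa-miR-205-5p (adjusted p = 0.247) and of 1.55 between the precursors (adjusted p = 0.0617), with its arrays up to 1.18 apart within a group. CCL5 was well above background on 3 arrays and its control arrays lay 2.17 apart. CXCL3 was above background on 1 array, and CXCL5, CXCL6, CXCL8, CCL2 and CCL20 on 0, so these 6 were not tested.

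Within the NF-kB group, RELB and ICAM1 were higher with hsa-miR-205-5p than in both other groups. RELB, the subunit of the slower NF-kB branch, had values of 7.45 and 7.67 with hsa-miR-205-5p, 6.11 and 6.18 with hsa-miR-214-3p, and 6.23 and 6.12 in the control. The hsa-miR-214-3p and control arrays overlapped. It was 2.61-fold higher than the control (log2 fold change 1.38 ± 0.17, adjusted p = 0.00960) and 2.66-fold higher than with hsa-miR-214-3p (1.41 ± 0.17, adjusted p = 0.00532).

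ICAM1, an adhesion molecule that binds leukocyte integrins and a classic NF-kB responsive gene, had values of 3.49 and 3.44 with hsa-miR-205-5p, 2.13 and 2.08 with hsa-miR-214-3p, and 1.40 and 1.19 in the control. The groups did not overlap, and the control was lowest. ICAM1 was 4.50-fold higher than the control with hsa-miR-205-5p (log2 fold change 2.17 ± 0.16, adjusted p = 0.00799) and 2.56-fold higher than in the hsa-miR-214-3p arrays (1.36 ± 0.16, adjusted p = 0.00544). The value for hsa-miR-214-3p against the control, 0.81, did not pass the test (adjusted p = 0.0651).

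NFKBIE, the inhibitor IkB epsilon, and IRAK2, a kinase below the interleukin-1 and Toll-like receptors, differed between the precursors. NFKBIE had values of 5.14 and 5.52 with hsa-miR-205-5p, 3.43 and 2.93 with hsa-miR-214-3p, and 4.54 and 4.05 in the control, so that the control lay in the middle without overlap. The direct difference was 4.44-fold (log2 fold change 2.15 ± 0.28, adjusted p = 0.00651), while its differences from the control, 1.03 and -1.12, did not pass the test (adjusted p = 0.0566 and 0.101). IRAK2 had values of -1.07 and -1.26 with hsa-miR-205-5p and -1.32 and -1.52 in the control, and with hsa-miR-214-3p it was not well above background (-3.30 and -3.68). It was at least 1.49-fold lower with hsa-miR-214-3p than in the control (adjusted p = 0.0257) and at least 1.78-fold lower than with hsa-miR-205-5p (adjusted p = 0.00397). Such bounds set the brighter group's mean against the lowest signal that counted as well above background on the dim group's arrays, or the probe's own signal where that was higher.

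Of the other members of the NF-kB group, 3 differed between the precursors by less than 2-fold. NFKB1 (p105/p50) had log2 fold changes of 0.40 with hsa-miR-205-5p and -0.34 with hsa-miR-214-3p against the control (adjusted p = 0.160 and 0.322), and 0.74 between the precursors (adjusted p = 0.0298). NFKBIA, or IkB alpha, had 0.28, -0.32 and 0.60 in the same order (adjusted p = 0.275, 0.320 and 0.0447). PTGS2, the inducible cyclooxygenase, had 0.27, -0.72 and 0.98 (adjusted p = 0.392, 0.132 and 0.0223). Their differences from the control did not pass the test, and under median scaling those of NFKBIA and PTGS2 with hsa-miR-205-5p turned negative. NFKB2, TNFAIP2, SOCS3 and the apoptosis inhibitor BIRC3 were within -0.48 and 0.18 in all comparisons. TNFAIP3, the deubiquitinase A20, was above background on 1 array and was not tested.

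IL1RAP and IL7R, 2 of the 3 tested receptors, were higher with both precursors, each time against the same 2 control arrays. IL1RAP is the chain that the receptors of interleukin-1 and interleukin-33 need for signaling. Its values on the brighter probe were 1.81 and 1.76 with hsa-miR-205-5p, 1.50 and 1.48 with hsa-miR-214-3p, and -0.78 and -0.53 in the control. All 4 precursor arrays lay above the control by more than 2 units. It was 5.44-fold higher with hsa-miR-205-5p (log2 fold change 2.44 ± 0.17, adjusted p = 0.00799) and 4.43-fold higher with hsa-miR-214-3p (2.15 ± 0.17, adjusted p = 0.0251). Between the precursors the difference was 0.30 with a 95% interval of -0.11 to 0.71 (adjusted p = 0.209). On the dimmer probe IL1RAP was called with hsa-miR-205-5p (1.90) and not with hsa-miR-214-3p (1.03).

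IL7R, the receptor chain shared by interleukin-7 and thymic stromal lymphopoietin, had values of 3.31 and 3.27 with hsa-miR-205-5p, 3.55 and 3.64 with hsa-miR-214-3p, and 2.03 and 2.26 in the control. Again the 4 precursor arrays were above both control arrays. The increase was 2.21-fold with hsa-miR-205-5p (log2 fold change 1.15 ± 0.16, adjusted p = 0.0133) and 2.73-fold with hsa-miR-214-3p (1.45 ± 0.16, adjusted p = 0.0303), and the difference between the precursors was -0.30 with a 95% interval of -0.71 to 0.11 (adjusted p = 0.200). IL4R had log2 fold changes of 0.45 and 0.10 (adjusted p = 0.171 and 0.807). Of the ligands of these receptors, IL1B was well above background on all 6 arrays, and IL1A, IL7 and TSLP on 0. IL1R1, the partner of IL1RAP, and the receptors IL6R and IL13RA2 and the cytokine TNF were above background on 0 arrays as well and were not tested.

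**Figure D4:**
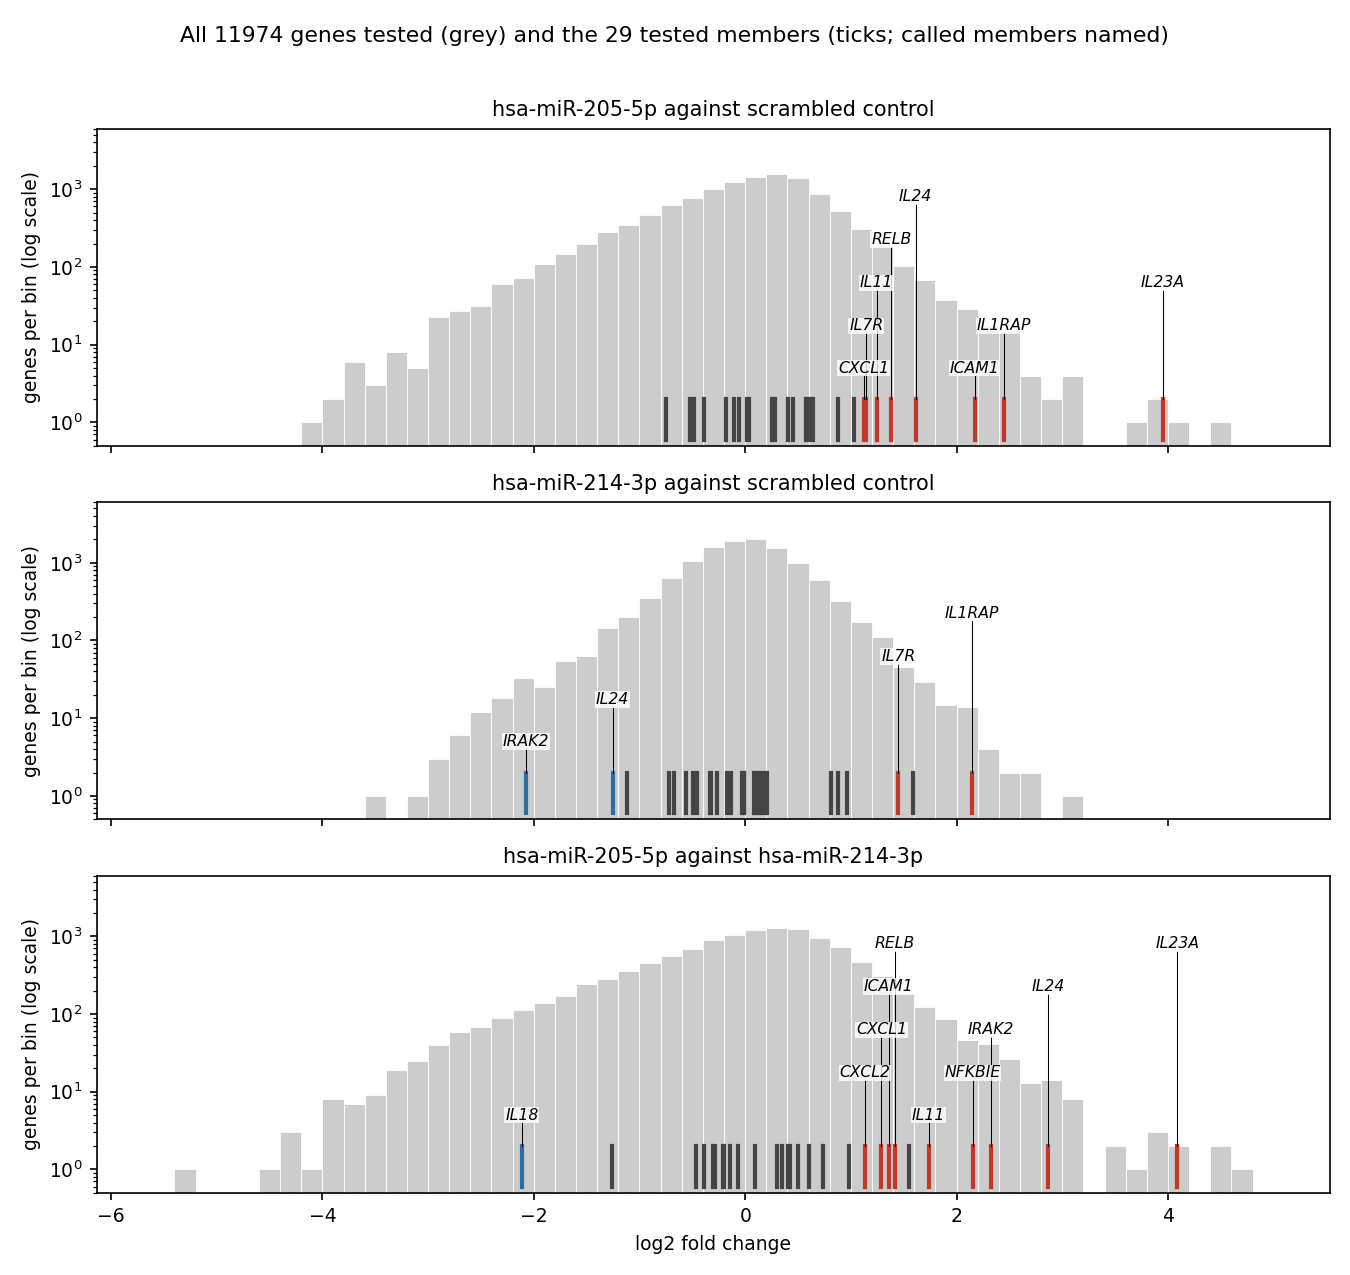
Number of genes (y axis, log scale) by log2 fold change (x axis) for all 11974 genes tested, in grey, in the 3 comparisons, with a tick for each of the 29 tested members, red where called higher, blue where called lower and dark grey where not called. IRAK2 stands at its fitted value, which is no bound. IL23A lies at the upper end of all genes at 3.95 and 4.09, and the median member lies at 0.45, -0.01 and 0.42 beside 0.08, -0.01 and 0.12 for all genes.

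Since many members are known NF-kB responsive genes, their promoters were searched for the kB motif GGNNTTTCC and the AP-1 motif TGANTCA on both strands, in windows of 250 bases before to 50 after each gene's start from RefSeq on GRCh38.p14. A window was at hand for 33 members. The kB motif was found in 19 of the 33 (57.6%), beside 7.61% of the 27305 genes with a window, and the AP-1 motif in 6 (18.2%), beside 9.37%. In the 2 windows that held both motifs they did not overlap. Among the tested members, the kB motif was in 2 of the 7 with a window that were higher with hsa-miR-205-5p than in the control, CXCL1 and ICAM1, and in 10 of the 15 others. RELB, also higher with hsa-miR-205-5p, had no window. Other forms of the kB motif were not searched, so these counts hold for this pattern only. A match describes these letters in this window, not a site in use.

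The kB matches of members that were called and of some that were not are shown with their surroundings, 5′ to 3′ on the gene's strand, the matched letters in capitals. CXCL1, CXCL2 and NFKBIA each had 2 matches, of which the first in the window is shown.
CXCL1: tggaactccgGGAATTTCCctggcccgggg
CXCL2: tggagctccgGGAATTTCCctggcccggga
ICAM1: gctttagcttGGAAATTCCggagctgaagc
IL6: atcaaatgtgGGATTTTCCcatgagtctca
NFKB1: gacgtcagtgGGAATTTCCagccaggaagt
NFKBIA: ggtcggaaGGACTTTCCagccactcggcgc
They lie at chr4:73869305-73869334 (plus), chr4:74099253-74099282 (minus), chr19:10270924-10270953 (plus), chr7:22727118-22727147 (plus), chr4:102501301-102501330 (plus) and chr14:35404970-35404999 (minus). CXCL1 and CXCL2 carry the same 9 letters in nearly the same surroundings. Of these 6 genes, ICAM1 differed from the control with hsa-miR-205-5p by 2.17 on the log2 scale and NFKBIA by 0.28.

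IL23A, IL24 and IL11, the 3 cytokines called higher with hsa-miR-205-5p, had no match to the pattern GGNNTTTCC in their windows. Other forms of the kB motif were not searched. IL23A and IL11 each had 1 match to the AP-1 motif, in capitals in the 250 bases before their starts, which are shown because these members were higher with hsa-miR-205-5p than in both other groups.
IL23A: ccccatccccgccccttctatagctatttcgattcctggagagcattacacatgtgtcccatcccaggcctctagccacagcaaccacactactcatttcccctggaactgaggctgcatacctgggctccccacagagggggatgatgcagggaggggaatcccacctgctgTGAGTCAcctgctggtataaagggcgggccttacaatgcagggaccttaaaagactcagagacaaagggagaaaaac
IL11: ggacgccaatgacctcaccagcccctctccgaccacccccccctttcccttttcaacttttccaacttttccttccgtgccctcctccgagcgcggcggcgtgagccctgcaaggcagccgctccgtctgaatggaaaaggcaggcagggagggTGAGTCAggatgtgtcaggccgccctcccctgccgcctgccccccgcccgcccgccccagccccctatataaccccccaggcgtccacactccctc
They lie at chr12:56338634-56338883 on the plus strand and chr19:55370464-55370713 on the minus strand. A lack of a match says only that these letters are not in this window.

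Genes of the same pathways outside the 44 were counted on 3 further lists, of which 87 of 115 genes were tested. With hsa-miR-205-5p, 7 (8.05%) were higher than in the control and 2 (2.30%) lower, beside the 4.78% and 7.98% of all genes. Among probes well above background on all 6 arrays, 5 were higher and 2 lower. Of the 34 tested NF-kB signaling proteins 0 were called by limma, 2 were lower at an unadjusted p, MYD88 and NFKBIZ, and by the methods' t-test 0. Of the 27 tested receptor subunits and JAK-STAT genes, SOCS1, an inhibitor of cytokine receptor signaling (log2 fold change 1.27, adjusted p = 0.0133), and JAK3 (1.20, adjusted p = 0.0304) rose, and IL11RA, the receptor chain of interleukin-11, fell by 1.14 on the log2 scale (adjusted p = 0.0121). Of the 26 tested other NF-kB responsive genes, SAA1, an acute-phase protein (2.16), CCL3 (1.66) and the channel protein PANX1 (1.15) rose and the interferon-responsive factor IRF1 fell by 2.06. LTB, which encodes lymphotoxin beta, the ligand that engages the RELB branch, is named here after its values were seen. Its probe was well above background only with hsa-miR-205-5p, the group through which it passed the filter, and stood at least 10.4-fold above the control. The fifth of the 5 called higher on this list was MMP9, a secreted protease (2.28), also named after its values were seen. Its probe was above background on 1 of 2 control arrays and likewise passed the filter only through hsa-miR-205-5p. SAA1 and CCL3 have near-identical copies whose transcripts a probe may share.

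In the hsa-miR-214-3p arrays 2 of the 87 genes were higher than in the control, the receptor TLR4 (log2 fold change 1.38, adjusted p = 0.0370) and SAA1 (1.23, adjusted p = 0.0370), and 2 were lower, PANX1 (-1.23) and TLR3 (-1.89, named after its values were seen, both with an adjusted p of 0.0373). With hsa-miR-214-3p the TLR3 probe was well above background on 1 of 2 arrays. These are 2.30% each way, beside 1.09% and 2.03% of all genes. Between the precursors 12 (13.8%) were higher with hsa-miR-205-5p and 7 (8.05%) lower, beside 9.18% and 11.3% of all genes, and among probes well above background on all 6 arrays 8 were higher and 5 lower. The higher ones included TOLLIP (1.13), SOCS2 (1.79), IL17RC (1.60), JAK3 (1.40), PANX1 (2.39), CCL3 (2.33) and CD83 (1.34), and the others were LTB, TRAF1, TLR3, MMP9 and BCL2A1. Among the lower ones were the inhibitor NFKBIZ (-1.70), the adaptor MYD88 (-1.69), IL11RA (-1.17), IRF1 (-2.60) and EFNA1 (-1.50), and the others were IL10RB and STAT3. Of those others, all but BCL2A1 were not well above background on 1 or 2 of the 4 arrays compared.

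Markers of other cell types moved with hsa-miR-205-5p too. Of the 4 luminal markers tested, CDH1 and KRT19 were higher than in the control and TFF1 lower, and the summed signal of the 8, in units of each array's 75th percentile, was 1505 to 1743 with hsa-miR-205-5p, 723 to 785 with hsa-miR-214-3p and 690 to 887 in the control. Of the 3 immune markers tested, CD14 was higher and CD68 lower, and the sum of the 7 was 13.5 to 14.9, 15.9 to 16.6 and 13.5 to 15.8 in the same order. Of the 7 tested mesenchymal markers 0 were called in any comparison by limma, also at an unadjusted p, and 0 by the methods' t-test. The part of these shifts in the members' values was not tested.

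The calls rest on 2 arrays per group. Without hsa-miR-205-5p array 2, limma called 0 members and 0 of all genes against the control (9 members higher at an unadjusted p), with IL23A at a log2 fold change of at least 3.87 whichever array was left out. Of the hsa-miR-214-3p calls against the control, all 4 were lost when the fit held only the 4 arrays compared (0 called by limma, 3 higher and 3 lower at an unadjusted p) and when any 1 array other than control array 2 was left out (0 called, 3 higher and 2 to 3 lower at an unadjusted p). Scaling to the median of all probes moved the median of all genes with hsa-miR-205-5p from 0.08 to -0.31, that of the tested members from 0.45 to 0.06, and left IL23A, IL24, ICAM1 and IL1RAP called. With normexp background correction both medians were -0.02 and 0.19. Between the precursors the medians of all genes and of the tested members were -0.10 and 0.20 under median scaling. Of all calls against the control with hsa-miR-205-5p, 62.6% were lower as given above, 89.8% under median scaling and 82.1% with normexp background correction. Against the control with hsa-miR-214-3p these shares were 65.0%, 86.3% and 85.0%, and between the precursors 55.2%, 73.8% and 60.8%.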

How the data were processed

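RNA of 6 MDA-MB-231 samples was hybridised to 1-colour Agilent SurePrint G3 Human GE arrays, and the spots were extracted by the authors with Agilent Feature Extraction 11.0, as the file headers and processing notes give it. The deposited scanner files hold intensity values, of which the processed signal, already background-subtracted, was used. Outlier spots (245 to 463 an array) and control spots were dropped, spots of 1 probe were averaged, and log2 was taken and reduced by each array's 75th percentile (35.1 to 58.0 intensity units). No member spot or other spot was marked saturated. The authors' deposited table of log2 values served as an alternative. Its columns share a median of 3.49 and correlated with the log2 processed signal at 0.997 or above, so the log2 scale, the equal distributions and the direction were inferred from the values. Probes were named through RefSeq transcripts (GRCh38.p14, names only), and 30275 probes matched a symbol.

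Limma 3.58.1 in R 4.3.3 was fitted to all 6 arrays, with Benjamini-Hochberg adjustment over the tested probes. Its calls needed an adjusted p under 0.05 and at least 2-fold. A gene is given by its tested probe with the highest mean signal. Intervals are at 95% and p-values two-sided. The study's methods name GeneSpring, the same limits and a two-tailed t-test with no stated adjustment, and this t-test was run as an alternative. The fit was tested on simulated data. Other alternatives changed the background correction, scaling, filter, arrays, spread estimate, fold limit, probe choice and a replicate block.

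IL23A and every member called in at least 1 comparison are given with each array's value, other tested members by fold change or range, untested ones by name. Of the pathway lists, up to 3 called genes a direction with the largest change were named among those well above background on the arrays compared. Members and lists were chosen with earlier results of these data known. Array number, 2 a group, limits the precision. A marker of the blood and immune cell list is not reported here.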

Additional observations from a re-analysis of the deposited data

How the results depend on the processing

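All 504 values of IL23A and of the members in the comparisons that called them kept their direction under the alternatives. Of all values of the tested members, called or not, 11 of 87 changed sign under median scaling and 44 of 1815 under the other alternatives, 0 of them a call. Alternatives that changed only the test, its limits, the filter, the replicate block or an array outside the comparison left the fold change as it was. No sign could change in these, so the 504 and the 1815 include values whose direction was fixed in advance. Of the members called against the control with hsa-miR-205-5p, IL23A, ICAM1 and IL1RAP lost the call in 2 of 22 alternatives each and CXCL1 in 11. Between the precursors IL23A and IL24 kept it in all 22. The causes of the changes below were not tested.

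Against the control with hsa-miR-205-5p, members called higher (8) were 3 with normexp, 4 under median scaling, 4 without a filter, 5 in the fit of 4 arrays and 0 by the methods' t-test after Benjamini-Hochberg (7 unadjusted), and 0 to 9 when 1 array was left out. Members called lower (0) were 1 under median scaling, CCL26, and 0 to 1 when 1 array was left out. Pathway genes called higher (7) were 2 with normexp, 4 under median scaling, 0 by the adjusted t-test, 12 with no fold limit and 0 to 12 when 1 array was left out. Those called lower (2) were 12 under median scaling, 0 without a filter, 1 with 4 arrays, 4 with limma-trend and robust spread, 6 at an unadjusted p, 0 by the adjusted t-test, 5 with no fold limit, 7 by the probe with the lowest p and 0 to 7 when 1 array was left out.

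Against the control with hsa-miR-214-3p, members called higher (2) and lower (2) were 0 and 0 without a filter, with 4 arrays, under the replicate block and by the adjusted t-test (2 and 2 unadjusted). Those lower were also 0 with normexp and 1 among probes well above background on all arrays. With 1 array left out they were 0 to 3 higher and 0 to 2 lower. Pathway genes called higher (2) and lower (2) were likewise 0 and 0 in those fits, 0 and 1 with normexp, 4 and 4 at an unadjusted p, and 0 higher under median scaling, with 0 to 9 higher and 0 to 4 lower when 1 array was left out. Without control array 2, limma called 655 genes higher and 496 lower of all genes, against 131 and 243 with it, and IL18 joined the members called higher.

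Between the precursors, members called higher (9) were 3 to 9 when 1 array was left out, 3 without hsa-miR-214-3p array 2 and 5 without its array 1. Members called lower (1) were 0 in the authors' table, 0 without a filter and 0 to 1 with 1 array left out. Pathway genes called lower (7) were 3 with normexp, 12 under median scaling, 3 without a filter, 14 with no fold limit, 13 by the probe with the lowest p and 1 to 8 with 1 array left out. Those called higher (12) were 5 to 12 with 1 array left out and 8 to 14 in the other alternatives.

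Replicate numbers only name the arrays, since deviations of same-numbered arrays correlated at 0.01, -0.05 and 0.11. With the replicate block 8 members were higher with hsa-miR-205-5p than in the control, 0 were called with hsa-miR-214-3p (3 higher and 3 lower at an unadjusted p) and 10 were higher and 1 lower between the precursors. Where leaving out an array left a group with 1, that array was taken to vary like the others. A slide block was not run because all arrays shared 1 slide and 1 scan, and normexp used the median spot signal. For genes not well above background on any array of a group, only bounds can be given.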
